A study of Mus musculus with 6 samples.

Results

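The transcripts of 10 macrophage genes were examined in RNA sequencing libraries of acinar cells from the mouse pancreas, which make and secrete digestive enzymes. The genes were chosen by name: the complement chains C1qa, C1qb and C1qc, the surface receptors Adgre1 and Csf1r, the lysosomal proteins Cd68, Lyz2 and Laptm5, and the signalling adaptors Tyrobp and Fcer1g. All 10 were present among the 55414 gene rows of each library and among the 13115 genes with enough counts to be tested. The libraries came from adult, untreated mice, with 3 of genotype Pdx1Cre;Trip12+/+ (control) and 3 of genotype Pdx1Cre;Trip12fl/fl (knockout), so both groups carried a Cre recombinase driven by the Pdx1 promoter. Pdx1 is active in the epithelial lineage of the pancreas, whereas macrophages descend from blood-forming cells or yolk sac precursors. TRIP12 is an E3 ubiquitin ligase, and the comparison asks how gene expression in acinar cells differs without it. The labels call the replicates biological but do not say whether each is a separate animal, so p-values measure the spread between these libraries. In the fits that hold the replicate number, p-values measure the spread of the differences between same-numbered libraries.

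Macrophages live in every organ, including the connective tissue around the acini, where they engulf dying cells and debris. C1q is the recognition molecule that starts the classical complement pathway, and it is built from A, B and C chains. Unlike most complement proteins, which the liver makes, C1q is made mainly by macrophages and related myeloid cells. Signals from many macrophage surface receptors pass through TYROBP and FCER1G, small membrane adaptors with an immunoreceptor tyrosine-based activation motif (ITAM).

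RefSeq promoter windows on mouse build GRCm38.p6 were searched for 6 of the 10 genes (C1qb, C1qc, Cd68, Fcer1g, Laptm5 and Lyz2). No window was found for C1qa, Adgre1 and Tyrobp, and Csf1r was left out of the search by choice. The windows of C1qb, C1qc, Cd68 and Fcer1g are shown because these 4 were higher in knockout within every numbered pair of libraries. Each sequence holds the 250 bases before the transcription start, 5′ to 3′ along the minus strand, on which all 4 genes lie. Capitals mark GAGGAA or its reverse complement TTCCTC, a core recognised by the myeloid transcription factor PU.1. The windows lie at chr4:136886201-136886450, chr4:136892915-136893164, chr11:69666171-69666420 and chr1:171234350-171234599.
C1qb: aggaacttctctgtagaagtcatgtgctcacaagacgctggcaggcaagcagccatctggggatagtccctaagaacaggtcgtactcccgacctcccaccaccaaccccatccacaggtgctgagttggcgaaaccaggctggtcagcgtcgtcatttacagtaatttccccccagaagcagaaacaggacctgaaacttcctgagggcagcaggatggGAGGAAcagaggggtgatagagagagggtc
C1qc: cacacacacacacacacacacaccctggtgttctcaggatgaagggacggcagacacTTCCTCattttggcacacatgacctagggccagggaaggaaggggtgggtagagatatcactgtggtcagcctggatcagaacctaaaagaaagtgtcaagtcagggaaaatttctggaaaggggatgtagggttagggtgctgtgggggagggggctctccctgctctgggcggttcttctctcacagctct
Cd68: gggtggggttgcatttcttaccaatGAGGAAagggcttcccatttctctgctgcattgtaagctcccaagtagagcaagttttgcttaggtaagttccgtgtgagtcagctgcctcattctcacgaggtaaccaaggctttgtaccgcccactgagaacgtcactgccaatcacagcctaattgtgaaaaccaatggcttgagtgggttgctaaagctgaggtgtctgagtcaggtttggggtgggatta
Fcer1g: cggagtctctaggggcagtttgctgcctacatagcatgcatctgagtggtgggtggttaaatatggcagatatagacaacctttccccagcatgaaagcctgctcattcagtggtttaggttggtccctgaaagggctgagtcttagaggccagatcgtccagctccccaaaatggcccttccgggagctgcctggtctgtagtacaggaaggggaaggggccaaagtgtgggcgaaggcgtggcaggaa

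Counting back from the start, GAGGAA or its complement began at base 30 in C1qb, 193 in C1qc and 225 in Cd68, and also at base 38 in Laptm5. Fcer1g held neither this core nor any other motif searched. The core thus occurred in 4 of the 6 windows, against 23.3% of 32851 windows of the same length, both strands being searched. In all, 7 motifs were searched. The RUNX core TGTGGT occurred in C1qc and Lyz2 and in 14.0% of all windows, the AP-1 motif TGANTCA in Cd68 and in 6.75%, and the TATA box TATAAA in Laptm5 and in 12.4%. No window of the 6 held the MAF half-site TGCTGAC (3.81% of all windows), the IRF-type repeat, TTTC followed after any 2 bases by a second TTTC (2.98%), or the E-box CACGTG (6.02%). No match shared letters with a match of another motif, and a match describes letters only.

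The libraries held 31019500 to 34041901 gene counts. Trip12 had 28.99, 22.3 and 26.4 CPM in the control libraries against 14.4, 14.7 and 12.97 CPM in the knockout libraries, and edgeR's quasi-likelihood test gave a log2 fold change of -0.89 (SE 0.14, adjusted p = 0.0256). CPM are gene counts brought to a common library size, here after scaling for library composition. Digestive enzymes dominated every library, Ctrb1 alone holding 100082 to 148432 CPM, whereas the 10 macrophage genes summed to between 16.9 and 74.0 CPM. Xist and Y-linked counts marked control replicates 2 and 3 as female and the other 4 libraries as male, so sex and genotype are partly confounded. Same-numbered control and knockout libraries deviated together from their group means, so values are also compared within these numbered pairs. Pairs 2 and 3 each set a female control against a male knockout, so their differences mix sex with genotype.

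All 10 genes had counts in every library, at low levels. Control replicate 2 was the thinnest, with 2 counts of Adgre1 (95% Poisson interval 0.242 to 7.22), 3 of Fcer1g, 5 of Cd68 and 8 of C1qc (3.45 to 15.8). Such intervals cover counting error only. On the scale of CPM per kilobase of exon, which allows levels of different genes to be compared, the mean over the 6 libraries was 16.6 for Lyz2, 2.78 for C1qa, 2.74 for C1qb, 1.53 for Tyrobp, 1.27 for C1qc, 1.13 for Laptm5, 0.977 for Fcer1g, 0.906 for Cd68, 0.729 for Csf1r and 0.346 for Adgre1. Lyz2, which encodes a lysozyme of macrophages, stood apart: its lowest library, at 6.5, lay above the highest of any other member, 5.69 for C1qa in knockout replicate 3. Among the other 9, neighbours in this order differed by less than the SD over the libraries of either gene, except that the difference of C1qb from Tyrobp exceeded the SD of Tyrobp. Csf1r was above Adgre1 in 6 of 6 libraries. Lyz2 has a near-identical copy, Lyz1, so its counts are uncertain.

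**Figure D1:**
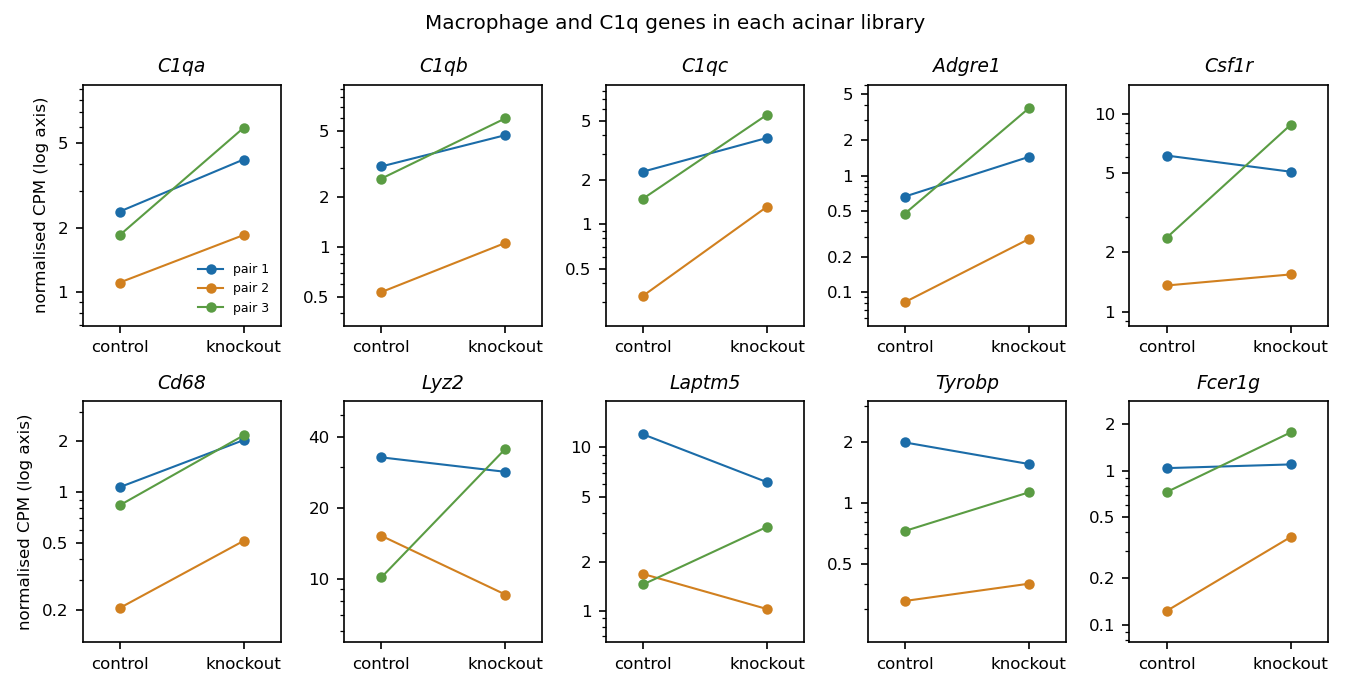
Normalised CPM (log axis) of each of the 10 genes in the 3 control and 3 knockout libraries, with a line joining same-numbered libraries. C1qa, C1qb, C1qc, Adgre1, Cd68 and Fcer1g are higher in knockout in all 3 pairs, and in every panel the control and knockout values overlap.

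The 3 C1q chains were higher in the knockout of every pair, by 1.54 to 4.0 times, but the groups overlapped, pair 2 being low in both genotypes. They were called with the replicate number as a block and not without it. In bulk libraries such as these, more cells of a type and more RNA per cell cannot be told apart. C1qa, the A chain, had 2.39, 1.11 and 1.85 CPM in the control libraries against 4.2, 1.85 and 5.92 CPM in the knockout libraries. The lowest knockout library lay level with the highest-but-one control, and pair 3 differed most. The means were 1.78 CPM ± 0.645 (SD, n = 3) in control and 3.99 CPM ± 2.04 (SD, n = 3) in knockout. C1qa had an edgeR log2 fold change of 1.16 (SE 0.45, adjusted p = 0.260) without the block and 1.10 (SE 0.26, adjusted p = 0.0328) with it.

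C1qb, the B chain, had 3.05, 0.534 and 2.58 CPM in the control libraries against 4.71, 1.06 and 5.95 CPM in the knockout libraries. Knockout replicate 2 was lower than control replicates 1 and 3 and higher only than control replicate 2. By edgeR's quasi-likelihood test the log2 fold change of C1qb was 0.92 (SE 0.82, adjusted p = 0.657) without the block and 0.93 (SE 0.24, adjusted p = 0.0468) with it. C1qc, the C chain, had 2.27, 0.328 and 1.49 CPM in the control libraries against 3.83, 1.31 and 5.49 CPM in the knockout libraries. As for C1qb, knockout replicate 3 was the highest library and control replicate 2 the lowest. C1qc had an edgeR log2 fold change of 1.37 (SE 0.75, adjusted p = 0.434) without the block and 1.45 (SE 0.31, adjusted p = 0.0189) with it.

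Of the summed level of the 3 chains per kilobase, the C1qa share was 36.6%, 61.7% and 36.2% in the control libraries against 39.0%, 51.9% and 40.7% in the knockout libraries. The C1qc share was 18.7%, 9.85% and 15.7% in control against 19.1%, 19.8% and 20.3% in knockout. The C1qa share was highest in pair 2 in both genotypes, the pair with the fewest counts of all 3 chains.

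The receptors differed from each other. Adgre1, which encodes the macrophage surface marker F4/80, had 0.661, 0.0821 and 0.472 CPM in the control libraries against 1.45, 0.285 and 3.78 CPM in the knockout libraries. All pairs were higher in knockout, and knockout replicate 3 stood above the other libraries with 141 counts. By edgeR's quasi-likelihood test the log2 fold change of Adgre1 was 2.15 (SE 1.00, adjusted p = 0.345) without the block and 2.00 (SE 0.48, adjusted p = 0.0337) with it. Its log2 fold change was the largest of the 10. In pair 2 a difference was not detectable at this depth, the ratio being 3.47 with a 95% counting interval from 0.740 to 32.6.

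Csf1r, the receptor for the growth factors CSF1 and IL-34 on which macrophages depend, had 6.14, 1.35 and 2.36 CPM in the control libraries against 5.09, 1.54 and 8.76 CPM in the knockout libraries. It was lower in the knockout of pair 1 and 3.71 times as high in that of pair 3. Its log2 fold change was 0.63 (95% interval -1.43 to 2.7) without the block and 0.61 (-0.47 to 1.69) with it, and it was called in neither edgeR fit. Csf1r overlaps Hmgxb3 on the opposite strand in the GENCODE M21 annotation, and the counts do not separate strands. The other 9 genes overlap no annotated gene.

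**Figure D2:**
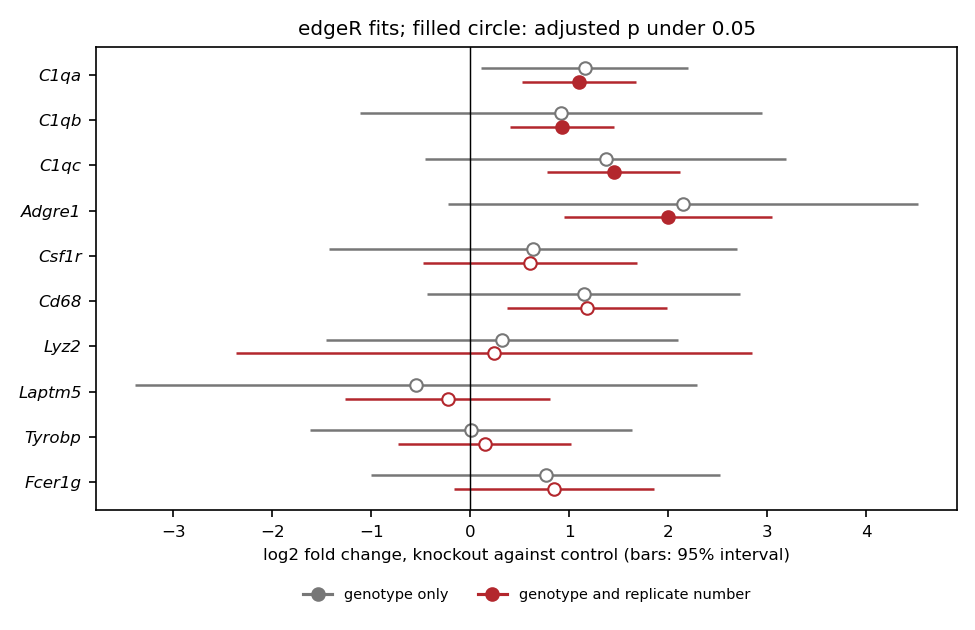
Log2 fold change of each gene, knockout against control, with its 95% interval in the edgeR fit on genotype only and in the fit that also holds the replicate number. C1qa, C1qb, C1qc and Adgre1 had an adjusted p under 0.05 in the second fit, and no gene had one in the first.

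Of the lysosomal proteins, Cd68 alone was higher in the knockout of all pairs. Cd68, a glycoprotein of macrophage endosomes and lysosomes, had 1.07, 0.205 and 0.835 CPM in the control libraries against 2.03, 0.513 and 2.17 CPM in the knockout libraries. Knockout replicate 2 lay below control replicates 1 and 3. Cd68 had an edgeR log2 fold change of 1.14 (SE 0.69, adjusted p = 0.462) without the block and 1.18 (SE 0.37, adjusted p = 0.0855) with it. Lyz2 had 32.9, 15.2 and 10.1 CPM in the control libraries against 28.5, 8.56 and 35.7 CPM in the knockout libraries. It was lower in the knockout of pairs 1 and 2 and 3.53 times as high in that of pair 3.

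Laptm5, a lysosomal membrane protein of blood cells in general, had 12.02, 1.68 and 1.45 CPM in the control libraries against 6.13, 1.03 and 3.27 CPM in the knockout libraries. Control replicate 1 held the most, and as for Lyz2 the knockout was lower in pairs 1 and 2 and higher in pair 3. Lyz2 and Laptm5 were called in neither fit, and with the block the 95% intervals of their log2 fold changes ran from -2.36 to 2.85 and from -1.26 to 0.81.

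Among the adaptors, Tyrobp, which encodes DAP12, had 1.98, 0.328 and 0.726 CPM in the control libraries against 1.55, 0.399 and 1.13 CPM in the knockout libraries. Pair 1 was lower in knockout and the other pairs higher, and the log2 fold change was 0.01 (95% interval -1.62 to 1.64). Fcer1g, the shared gamma chain of Fc receptors, had 1.04, 0.123 and 0.726 CPM in the control libraries against 1.1, 0.371 and 1.77 CPM in the knockout libraries. It was higher in the knockout of all pairs, by 1.06 times in pair 1. By edgeR's quasi-likelihood test the log2 fold change of Fcer1g was 0.76 (SE 0.77, adjusted p = 0.689) without the block and 0.84 (SE 0.46, adjusted p = 0.306) with it.

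**Figure D3:**
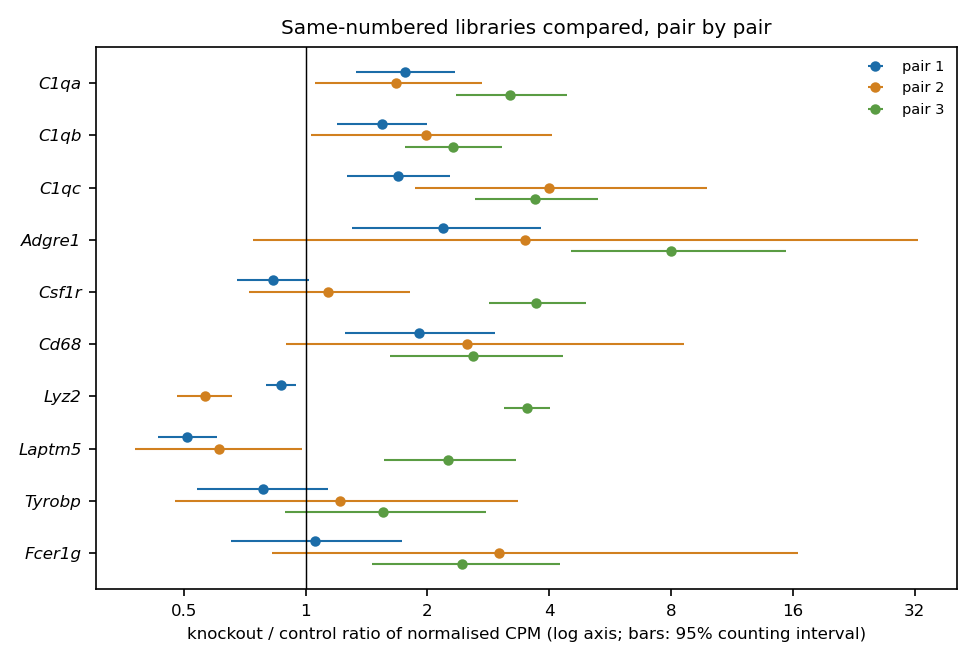
Ratio of knockout to control CPM (log axis) within each numbered pair, with the exact 95% interval of counting error. The intervals of the C1q chains lie above 1 in all 3 pairs, whereas Lyz2 and Laptm5 lie below 1 in pairs 1 and 2 and above it in pair 3.

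By edgeR's test on genotype alone, 0 of the 10 genes were called at an adjusted p under 0.05, against 0.945% of the 13115 tested genes. DESeq2's Wald test and limma-voom also called 0 (4.53% and 0.64% of tested genes), and 1 gene, C1qa, had an unadjusted p under 0.05 in edgeR (0.0345), against 16.7% of tested genes. The blocked fit called 4 of 10 (C1qa, C1qb, C1qc and Adgre1), all higher, against 5.98% of tested genes in either direction and 3.39% higher. With the block 5 of the 10 had an unadjusted p under 0.05, against 22.4% of tested genes. In 6 of the 10 the knockout was above its numbered control in all 3 pairs, against 24.2% of tested genes. With no filter on low counts edgeR called Adgre1 and C1qa, with 3.3% of 25772 genes called. It called 0 of the 10 with library totals (11.7% of tested genes), with DESeq2-type size factors (0.9%), with library sizes without the enzymes (1.51%), without robust estimation (0.762%), and among the 5 members with at least 10 counts in every library (1.89%). It also called 0 without control replicate 1, 2 or 3 (3.41%, 0.143% and 0.389% of tested genes) and without knockout replicate 1, 2 or 3 (0.202%, 0.64% and 0.175%). The groups parted in 0 of the 10, against 22.9% of tested genes. The median log2 fold change was 0.84 over the 10 genes and 0.02 over all tested genes.

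The blocked calls changed when a pair was left out. Without pair 2, 0 of the 10 were called, against 0.744% of tested genes, while the log2 fold changes were 1.24 for C1qa, 0.91 for C1qb, 1.3 for C1qc and 2.04 for Adgre1, close to those with all pairs. Without pair 3 they were smaller, at 0.78, 0.75, 1.17 and 1.29, and the adjusted p by edgeR were 0.158, 0.212, 0.0596 and 0.266. Laptm5 was then called lower (log2 fold change -0.88), with 6.14% of tested genes called. Without pair 1, C1qc and Adgre1 were called and C1qa and C1qb were not (log2 fold changes 1.25 and 1.11), with 3.09% of tested genes called. Each of these fits leaves 1 residual degree of freedom per gene. With sex as a covariate, where control replicate 1 is the only male control, edgeR called 0 of the 10 and 0.16% of tested genes, and the log2 fold changes of C1qa, C1qb, C1qc and Adgre1 were 0.74, 0.36, 0.65 and 1.47.

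Ratios between genes of the same library do not depend on how libraries are scaled. The mean level of the C1q chains per kilobase was 2.46, 3.52 and 2.47 times that of Cd68 in the control libraries against 2.13, 2.80 and 2.7 times in the knockout libraries. The knockout ratio was lower in pairs 1 and 2 and higher in pair 3. Against Tyrobp the ratio was 0.704, 1.17 and 1.51 in control but 1.48, 1.91 and 2.77 in knockout, and against Laptm5 it was 0.659, 1.3 and 4.28 in control but 2.13, 4.22 and 5.41 in knockout. Both were higher in the knockout of each pair, with overlap between the groups. Against Csf1r it was 1.97, 2.45 and 4.01 in control but 3.92, 4.29 and 3.08 in knockout, lower in the knockout of pair 3. Against Adgre1 it was 10.3, 22.7 and 11.3 in control but 7.73, 12.99 and 4.0 in knockout, lower in the knockout of each pair. Against Lyz2 it was 0.0838, 0.0497 and 0.213 in control but 0.159, 0.176 and 0.172 in knockout, and against Fcer1g 1.76, 4.08 and 1.97 in control but 2.75, 2.697 and 2.31 in knockout, without a common direction over the pairs.

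The 5 other genes whose pattern over the 6 libraries lay nearest to the mean of the C1q chains were Lama4, Rhob, Egr2, Igfbp6 and Ctsk. Nearness was the root mean square difference of log2 CPM centred on each gene's mean, which was 0.142 for Lama4 and 0.253 for Ctsk. Of the members, Cd68 lay nearest at 0.116 and Laptm5 farthest at 1.09. Lama4, a laminin chain of vessel basement membranes, had 3.68, 0.698 and 2.72 CPM in the control libraries against 5.89, 1.57 and 6.73 CPM in the knockout libraries. Since these genes were picked for their pattern over the same libraries, their differences between genotypes are a description, with no test.

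Other genes of the complement cascade came from a list of 28, of which 16 were tested. Only Vtn was called, lower both without and with the block, against 0.945% and 5.98% of all tested genes called in either direction. Vtn encodes vitronectin, which binds the terminal complement complex, and had 101, 167 and 154 CPM in the control libraries against 14.8, 26.4 and 18.8 CPM in the knockout libraries. The groups did not overlap. Vtn had an edgeR log2 fold change of -2.81 (SE 0.28, adjusted p = 0.00454) without the block and -2.82 (SE 0.16, adjusted p = 1.83e-06) with it. Without knockout replicate 3 its adjusted p in edgeR's test was 0.0582. C3, on which the activation pathways converge, had 18.03, 3.57 and 6.25 CPM in the control libraries against 26.9, 8.56 and 30.6 CPM in the knockout libraries. It was higher in the knockout of each pair but called in neither fit (adjusted p 0.518 and, with the block, 0.0943 in edgeR's test).

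C1s1, a serine protease of the C1 complex, had 3.75, 1.44 and 1.31 CPM in the control libraries against 4.42, 1.37 and 3.4 CPM in the knockout libraries. The regulator Clu was the most abundant gene of the cascade, at 387 to 615 CPM, with a log2 fold change of 0.16 (SE 0.20). Both were higher in knockout in 2 of 3 pairs. Of the 7 terminal components 2 were tested, C7 having 3.59, 0.0410 and 0 CPM in the control libraries against 3.45, 0.599 and 2.84 CPM in the knockout libraries, and C9 had no count in any library.

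Of 15 receptors for C1q and complement fragments 9 were tested, and 0 were called by edgeR without the block (0 with an unadjusted p under 0.05). Among all tested genes 0.945% were called in that fit and 16.7% had such a p. The median log2 fold change of the 9 was -0.07, and 0.30 with library totals in place of composition scaling. Cr2, a receptor of B cells, had 7.18, 0.780 and 0 CPM in the control libraries against 2.09, 0.0285 and 0 CPM in the knockout libraries. Pair 3 held no count, and Cr2 was called lower with the block (adjusted p 0.0371 in the blocked edgeR test). In that fit 1 of the 9 was called, against 5.98% of all tested genes. An unadjusted p under 0.05 was found for 2, against 22.4%. Calr, an abundant chaperone that also binds C1q, ranged over 71.5 to 114 CPM, and Itgb2, the shared beta chain of leukocyte complement receptors, over 4.8 to 9.28 CPM, with overlapping groups for both.

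A further list of 19 macrophage genes had 17 tested and 0 called in either edgeR fit, with 1 at an unadjusted p under 0.05 without the block and 3 with it. All tested genes had such a p in 16.7% without the block and 22.4% with it, and were called in 0.945% and 5.98%. The median log2 fold change of the list was 0.57, and 7 of the 17 were higher in the knockout of all pairs, against 24.2% of all tested genes. Mpeg1, a pore-forming protein of phagocytes, had 10.8, 0.821 and 2.32 CPM in the control libraries against 7.47, 2.37 and 8.79 CPM in the knockout libraries. Ctss, the protease cathepsin S, had 6.67, 1.48 and 1.56 CPM in the control libraries against 6.45, 1.77 and 6.35 CPM in the knockout libraries. Irf8, a transcription factor of macrophages, dendritic cells and B cells, had 7.93, 0.780 and 0.400 CPM in the control libraries against 4.71, 0.856 and 1.05 CPM in the knockout libraries. As for Csf1r, all 3 were lower in the knockout of pair 1 and higher in that of pairs 2 and 3.

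Among 23 ITAM receptors and signalling partners 10 were tested and 0 called in either edgeR fit, with 0 at an unadjusted p under 0.05 without the block and 1 with it. Over all tested genes 0.945% were called without the block and 5.98% with it, and 16.7% and 22.4% had such an unadjusted p. Fcgr2b, an inhibitory Fc receptor, had 2.05, 0.246 and 0.763 CPM in the control libraries against 2.01, 0.399 and 1.58 CPM in the knockout libraries. Ptpn6, a phosphatase of blood cells, had 12.5, 5.21 and 4.69 CPM in the control libraries against 7.17, 4.45 and 4.58 CPM in the knockout libraries. Fcgr2b was higher in the knockout of 2 pairs and Ptpn6 lower in that of all 3. Fcer1a and Trem3 had no count in any library.

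The list of CSF1 and monocyte recruitment genes held 11, of which 6 were tested and 0 called in either edgeR fit. Such calls covered 0.945% of all tested genes without the block and 5.98% with it. Without the block 0 of the 6 had an unadjusted p under 0.05 (16.7% of all tested genes), and with it 3 did. With the block, 22.4% of all tested genes had such a p. Of the 6, 5 were higher in the knockout of all pairs, against 24.2% of all tested genes. Csf1, the growth factor itself, had 2.3, 0.862 and 1.38 CPM in the control libraries against 4.2, 1.14 and 2.06 CPM in the knockout libraries. Csf2ra, a chain of the GM-CSF receptor, had 2.33, 0.780 and 0.400 CPM in the control libraries against 3.11, 1.63 and 2.14 CPM in the knockout libraries. Both were higher in the knockout of every pair, with overlap between the groups.

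Markers of B cells and of T and NK cells had a different pattern over the libraries. The summed level of 4 B cell genes was 29.4, 6.36 and 0.291 CPM in the control libraries against 14.99, 1.71 and 0.590 CPM in the knockout libraries. That of 9 T and NK cell genes was 19.4, 1.68 and 0.508 CPM in control against 8.62, 1.65 and 0.750 CPM in knockout. Both stood highest in pair 1 and were lower in the knockout of pairs 1 and 2, the T and NK cell sum only slightly so in pair 2. The remaining leukocyte markers differed among themselves. The sum of 6 neutrophil genes was lower in the knockout of pair 1 and higher in that of pairs 2 and 3, and that of 3 mast cell genes the reverse. The sum of 5 dendritic cell genes was higher in the knockout of every pair, and that of 3 monocyte genes lower. Zbtb46 alone made up most of the dendritic cell sum in every library. It had 8.56, 7.14 and 8.75 CPM of a sum of 11.8, 7.22 and 9.30 CPM in control. In knockout it had 10.6, 10.3 and 10.9 CPM of 12.5, 10.8 and 11.1 CPM. Of the 30 markers of other leukocytes 15 were tested, with a median log2 fold change of -0.95, and 0 were called by edgeR without the block (1 at an unadjusted p under 0.05). That fit called 0.945% of all tested genes, and 16.7% had such an unadjusted p.

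The most abundant tested marker was Cd79a for B cells at 0.107 to 7.8 CPM, Cd4 for T cells at 0.0726 to 4.94 CPM, S100a9 for neutrophils at 0.164 to 0.911 CPM, Cpa3 for mast cells at 0.161 to 0.835 CPM, Plac8 for monocytes at 0.257 to 2.14 CPM and Zbtb46 for dendritic cells at 7.14 to 10.9 CPM. Zbtb46, which endothelial cells also express, was the only one of these 6 whose groups did not overlap, against 22.9% of all tested genes. Of 5 dendritic cell markers Zbtb46 alone was tested. Among the others, Flt3, Xcr1 and Cd209a had lower means in knockout and Clec9a a higher one.

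The 10 genes of MHC class II presentation had 8 tested and 0 called in either edgeR fit, with 0 at an unadjusted p under 0.05 without the block and 1 with it. The shares of all tested genes called were 0.945% without the block and 5.98% with it. Those with such an unadjusted p were 16.7% and 22.4%. Cd74, the invariant chain, had 68.1, 13.1 and 4.79 CPM in the control libraries against 44.1, 6.96 and 15.8 CPM in the knockout libraries. Of the 8 pan-leukocyte genes, Lcp1, an actin-bundling protein, had 22.4, 9.52 and 12.7 CPM in the control libraries against 27.6, 19.99 and 23.8 CPM in the knockout libraries. It was higher in the knockout of all pairs and was called with the block (adjusted p 0.0225 in the blocked edgeR test), whereas the median log2 fold change of the 8 was -0.66. Lcp1 was the only 1 of the 8 called with the block, against 5.98% of all tested genes.

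**Figure D4:**
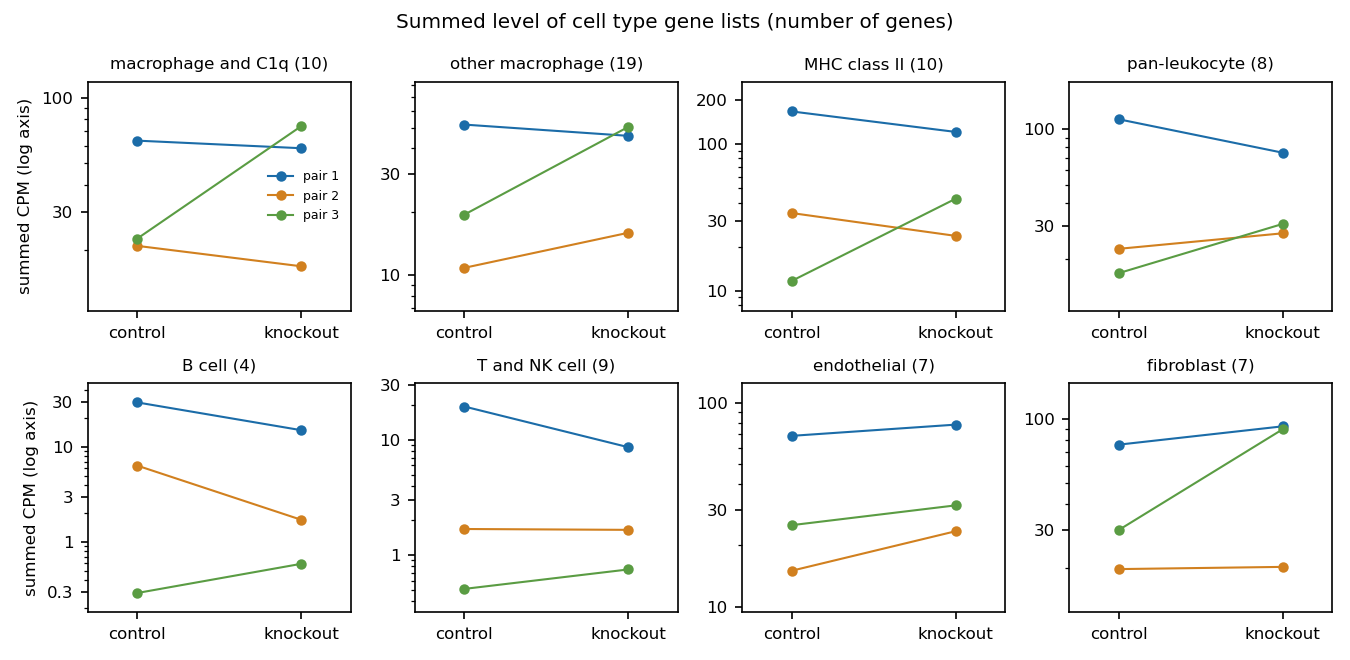
Summed normalised CPM (log axis) of gene lists in each library, with a line joining same-numbered libraries. B cell and T and NK cell genes are highest in pair 1, and the fibroblast sum differs most between genotypes in pair 3 (30.04 CPM in control, 89.7 CPM in knockout).

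Connective tissue and vessel genes had the same low libraries as the C1q chains. The summed level of 7 fibroblast genes was 75.8, 19.7 and 30.04 CPM in the control libraries against 92.6, 20.1 and 89.7 CPM in the knockout libraries. That of 7 endothelial genes was 68.9, 15.02 and 25.1 CPM in control against 78.2, 23.5 and 31.4 CPM in knockout. Both sums were lowest in replicate 2 of each group. Of the 14 genes 9 were higher in the knockout of all pairs, against 24.2% of all tested genes. In either edgeR fit 0 were called, against 0.945% of all tested genes without the block and 5.98% with it. Without the block 0 had an unadjusted p under 0.05 (16.7% of all tested genes), and with it 5 did. With the block, 22.4% of all tested genes had such a p. Dcn, a fibroblast proteoglycan, had 23.2, 9.07 and 11.5 CPM in the control libraries against 33.3, 8.24 and 36.02 CPM in the knockout libraries. Pecam1, an endothelial adhesion molecule, had 27.2, 4.23 and 8.32 CPM in the control libraries against 28.4, 8.33 and 9.75 CPM in the knockout libraries. No gene of the 14 was at 0 in every library, and their part in the difference of the C1q chains was not tested.

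Of 12 acinar markers, 9 were lower in the knockout of all pairs, against 20.8% of all tested genes. The median log2 fold change of the 12 was -0.43 and became 0.01 with library totals in place of composition scaling. None was called by edgeR without the block, against 0.945% of all tested genes. An unadjusted p under 0.05 was found for 6, against 16.7% of all tested genes. With the block Cela2a and Ptf1a were called lower and Rbpjl higher (adjusted p 0.0109, 0.0459 and 0.00203 in the blocked edgeR test). That fit called 5.98% of all tested genes. Cela2a, an elastase, had 80056, 117069 and 101745 CPM in the control libraries against 45323, 52834 and 50780.1 CPM in the knockout libraries. Ptf1a, a transcription factor of acinar identity, had 7.43, 14.04 and 10.8 CPM in the control libraries against 5.43, 9.47 and 7.05 CPM in the knockout libraries. Rbpjl, its partner in the same DNA-binding complex, had 183, 279 and 179 CPM in the control libraries against 485, 658 and 369 CPM in the knockout libraries. Of the listed genes outside the 10 that were called with the block, Vtn alone was called with the block without pair 2. With library totals the log2 fold changes of all tested genes shifted by 0.41 at the median, and that of C1qa was 1.54 (adjusted p = 0.0898, edgeR).

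**Figure D5:**
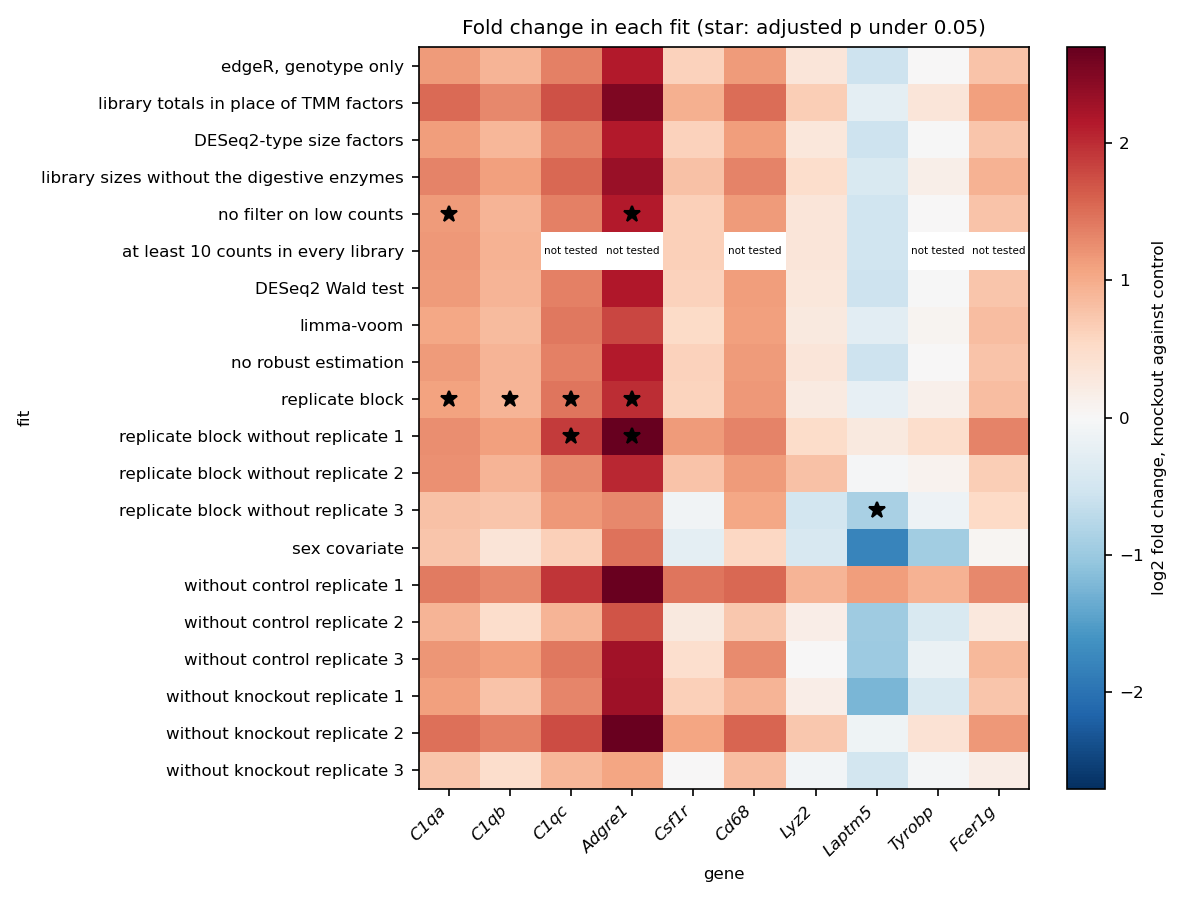
Log2 fold change (colour) of each gene in the edgeR fit on genotype only and in 19 alternative fits, with a mark where the adjusted p was under 0.05. C1qa, C1qb, C1qc, Adgre1, Cd68 and Fcer1g are above 0 in every fit in which they were tested, and the other 4 change sign in at least 1.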

How the data were processed

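RNA from 3 control and 3 knockout acinar libraries had been sequenced, and 1 table of raw counts per gene was deposited for each; per the submitters' processing notes STAR 2.7.10a and genome build GRCm39 were used, their roles not being stated. The deposited counts that ignore strand were used. The 4 rows that name no gene (reads unmapped, mapped to several places, outside genes or ambiguous) held 43.5% to 45.7% of reads in control and 36.9% to 41.1% in knockout and were left out of library sizes. Symbols were found for 52081 of 55414 identifiers.

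Genes passing edgeR's filterByExpr were scaled by TMM and tested with edgeR 4.0.16 (robust quasi-likelihood, genotype only), with Benjamini-Hochberg adjustment over all 13115 tested genes and a threshold of 0.05. Values of libraries are given in the order of replicates 1 to 3 throughout. A second fit held the replicate number as a block: deviations from group means correlated at 0.63, 0.455 and 0.285 between same-numbered libraries and at -0.496 to 0.21 between others, so the numbers were taken to pair them. The pairing comes from the labels' numbers, whose meaning is not stated, and this check. The check used the same libraries as the blocked fit, so it is not independent of that fit. Deviations within a group sum to 0 for each gene, so correlations above 0 force others below 0. Control replicate 3 correlated at 0.21 with knockout replicate 2, near the 0.285 with its same-numbered library. DESeq2, limma-voom, other scalings and filters, sex as a covariate and leaving out each library were alternatives. The edgeR fits without and with the block were tested on simulated data that held no effect of the replicate number. The alternatives were not tested in this way. Exon lengths and overlaps came from GENCODE M21 (GRCm38), so no gene coordinates are given in the files' build. Besides the members, the text names list genes called in either fit, the most abundant tested gene per role and the 5 nearest in pattern to the C1q chains. A result for 1 listed gene is not reported here. Members, lists, motifs and alternatives were chosen with earlier results of these data known, and no count over them is independent evidence.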

Additional observations from a re-analysis of the deposited data

Results flagged for a closer look

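The share of reads that mapped outside genes, which no comparison used, was 1.95%, 2.18% and 1.90% in knockout replicates 1 to 3, above every control library, of which the highest held 1.32%.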

How the results depend on the processing

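Of the 10 macrophage genes, 0 were called without the block, and 2 (Adgre1 and C1qa) without a filter on low counts, 4 with the replicate block, and 2 and 1 with the block but without replicate 1 or 3. Every fit that left out a single library called 0. At least 10 counts in every library left 5 of the 10 to test. Of the other listed genes, 1 of 115 tested was called, against 0.945% of all tested genes. With library totals 4 of 115 were called (11.7% of all tested genes). Library sizes without the enzymes gave 3 of 116 (1.51%), no filter 5 of 166 (3.3%) and at least 10 counts in every library 3 of 72 (1.89%). DESeq2 called 5 of 115 (4.53%) and the replicate block 7 of 115 (5.98%). With the block but without replicate 1 or 3, 9 of 101 (3.09%) and 16 of 126 (6.14%) were called. Leaving out single libraries gave 0 of 128 (0.175%, without knockout replicate 3) to 8 of 119 (3.41%, without control replicate 1). The cause was not tested.

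Log2 fold changes changed sign for 4 genes. Csf1r was at -0.090 with the block without replicate 3 and -0.26 with sex as a covariate, and Lyz2 at -0.50 and -0.44. Tyrobp was at -0.14 and -0.95 there, at -0.0061 with DESeq2-type size factors and at -0.0028 by DESeq2. Laptm5 was at 0.27 with the block without replicate 1. Without single libraries Lyz2 ranged from -0.069 to 0.91, Laptm5 from -1.24 to 1.13 and Tyrobp from -0.42 to 0.93. Over the 10 genes and their alternatives, 161 values kept direction and side of the threshold, 9 passed it and 15 changed sign. Few counts limit Adgre1, Cd68 and Fcer1g in control replicate 2, and also C1qc and Tyrobp, with 8 counts each.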
